A study of Mus musculus with 4 samples.

Results

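Histone H3 trimethylated on lysine 4 (H3K4me3) was examined at the CXC chemokine clusters of chromosome 5 in mouse macrophages. The members were all peaks that overlapped either of 2 fixed mm9 windows. The Cxcl1, Cxcl2, Cxcl3, Cxcl5 and Pf4 window ran from 91170000 to 91400000, and the Cxcl9, Cxcl10 and Cxcl11 window from 92745000 to 92800000. They held 35 of the 64314 peaks in the 4 deposited lists, namely 11 of 15086 in LPS-treated Wbp7-/- cells, 13 of 17313 in LPS-treated Wbp7+/- cells, 5 of 14599 in untreated Wbp7-/- cells and 6 of 17316 in untreated Wbp7+/- cells. Joined wherever they overlapped across lists, these peaks formed 14 of the 18786 regions of the series, 6 in the Cxcl1 window and 8 in the Cxcl9 window. The regions are numbered 1 to 14 by position, and positions are in mm9, counted from 1.

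The cells were primary macrophages grown from bone marrow for 7 days, from mice of mixed background, C57BL/6 (94%) and 129/Ola (6%). Wbp7, also called Kmt2b or MLL2, encodes a methyltransferase of lysine 4 on histone H3, and the cells carried no functional allele (Wbp7-/-) or 1 (Wbp7+/-), so the comparison group was heterozygous and not wild type. By the labels, each genotype was sampled after exposure for 4 h to LPS at 10 ug/ml, and without treatment. LPS is lipopolysaccharide, a molecule of the outer membrane of bacteria that macrophages sense through the receptor Tlr4. Each of the 4 groups held 1 library, and the labels do not say how many mice contributed. No difference described here therefore has a replicate check or a test. The first line of the LPS-treated Wbp7+/- file names 24 h where the label gives 4 h, and which of these times applies could not be settled. That of the LPS-treated Wbp7-/- file names 4 h, as its label does. Genotype comparisons after LPS, and of the LPS response between genotypes, may therefore also be comparisons of exposure time.

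CXC chemokines are small secreted proteins that guide white blood cells. Cxcl1, Cxcl2, Cxcl3 and Cxcl5 act on the receptor Cxcr2 and draw neutrophils, and macrophages are known to induce Cxcl1, Cxcl2 and Cxcl3 through NF-kB after LPS. Pf4, platelet factor 4, is stored in platelets and is also made by some macrophages. Cxcl9, Cxcl10 and, where its gene is functional, Cxcl11 are interferon-inducible ligands of Cxcr3, a receptor of T cells and natural killer cells. As given below, RefSeq lists mouse Cxcl11 as a transcribed pseudogene, and whether these cells make the protein was not examined. H3K4me3 marks active promoters, and its domains often extend from the start of a gene into its transcribed part.

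All 8 genes were found in the RefSeq gene table, which is of another build (GRCm38.p6) and was used for names and order only. It lists Cxcl5, Ppbp, Pf4, Cxcl3, Cxcl15, Cxcl1, Cxcl2 and Mthfd2l in this order, and further along the chromosome Cxcl9, Art3, Cxcl10 and Cxcl11, the last as a transcribed pseudogene. Because no mm9 gene annotation was used here, no region below is assigned to a single gene, to an exon or to a promoter. The labelled cell type was not checked against marker genes for the same reason.

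Promoters were searched because peak coverage differed with LPS in both windows and NF-kB and interferon-activated factors are known regulators of chemokine genes there. Those of Cxcl1, Cxcl2, Cxcl3 and Cxcl10 are printed, which are the 4 members with a kB match. The promoters of Cxcl9 and Pf4 held neither a kB nor an interferon response match and are not printed. The sequences are from RefSeq, build GRCm38.p6, 5′ to 3′ and end at the base before the gene's start. Their positions are chr5:90891120-90891244 (plus strand) for Cxcl1, chr5:90903774-90903898 (plus) for Cxcl2, chr5:90785976-90786100 (plus) for Cxcl3 and chr5:92348890-92349139 (minus) for Cxcl10, and cannot be set beside the mm9 positions of the peaks. Capitals mark matches on either strand to a kB motif (GGG, any 3 bases, TTCC), an interferon response motif (GAAA, any 2 bases, GAAA) or the TATA box (TATAAA).
Cxcl1: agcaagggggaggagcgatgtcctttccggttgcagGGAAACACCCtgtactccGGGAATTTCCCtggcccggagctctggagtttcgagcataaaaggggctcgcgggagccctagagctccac
Cxcl2: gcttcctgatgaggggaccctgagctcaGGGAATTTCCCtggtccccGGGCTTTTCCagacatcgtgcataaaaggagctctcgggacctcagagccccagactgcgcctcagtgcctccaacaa
Cxcl3: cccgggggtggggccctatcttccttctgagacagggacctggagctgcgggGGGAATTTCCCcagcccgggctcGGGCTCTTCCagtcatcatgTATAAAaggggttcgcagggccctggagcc
Cxcl10: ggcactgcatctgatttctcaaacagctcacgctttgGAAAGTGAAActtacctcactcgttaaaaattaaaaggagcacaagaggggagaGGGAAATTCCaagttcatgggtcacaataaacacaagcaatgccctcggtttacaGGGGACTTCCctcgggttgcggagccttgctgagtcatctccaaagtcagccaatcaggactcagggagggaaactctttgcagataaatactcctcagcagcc

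The same kB letters, GGGAATTTCC, were present in the promoters of Cxcl1, Cxcl2 and Cxcl3, from 71 to 62, 97 to 88 and 73 to 64 bases before the start, and each also matched the motif on the opposite strand, shifted by 1 base. In Cxcl10, kB matches lay from 159 to 150 and from 104 to 95 bases before the start, and GAAAGTGAAA matched the interferon response motif from 213 to 204. The letters TATAAA lay from 30 to 25 bases before the start in Cxcl3, but from 195 to 190 in Cxcl9. Of the 6 members with a promoter in the table (Cxcl1, Cxcl2, Cxcl3, Cxcl9, Cxcl10 and Pf4), 4 held a kB match, 1 the interferon response motif and 2 (Cxcl3 and Cxcl9) the TATA box. Among all 32851 promoters of the table, each 300 bases long with 250 before the start, the shares were 5.56%, 3.44% and 13.6%. Cxcl1, Cxcl2 and Cxcl3 share their kB letters, so the 4 members with a kB match need not be independent. A match describes letters only and is no evidence of binding.

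H3K4me3 peaks covered more of both windows after LPS than in untreated cells, in both genotypes. In the Cxcl1 window they covered 10804 bp in LPS-treated Wbp7-/- cells, 9464 bp in LPS-treated Wbp7+/- cells, 5759 bp in untreated Wbp7-/- cells and 5944 bp in untreated Wbp7+/- cells. In the Cxcl9 window the lengths were 9645 bp in LPS-treated Wbp7-/- cells, 12248 bp in LPS-treated Wbp7+/- cells, 1932 bp in untreated Wbp7-/- cells and 4755 bp in untreated Wbp7+/- cells. LPS over untreated, the ratio was 1.88 in Wbp7-/- and 1.59 in Wbp7+/- cells in the Cxcl1 window, and 4.99 and 2.58 in the Cxcl9 window. Over the whole lists the same ratio was 1.01 in each genotype.

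The peaks filled the shorter Cxcl9 window more densely. After LPS they covered 17.5% of its 55 kb in Wbp7-/- and 22.3% in Wbp7+/- cells, whereas in untreated cells they covered 3.51% in Wbp7-/- and 8.65% in Wbp7+/- cells. Of the 230 kb of the Cxcl1 window they covered 4.70% and 4.11% in LPS-treated Wbp7-/- and Wbp7+/- cells, and 2.50% and 2.58% in untreated Wbp7-/- and Wbp7+/- cells. Each peak has a score from the authors' peak caller, which starts at about 50 and grows with depth and enrichment. Scores of 3100 or above are called the ceiling here, although the highest in each list lies above 3100. Most peaks of every list reached the ceiling, so it does not set a peak apart. After LPS it held 8950 of 15086 peaks in Wbp7-/- and 9480 of 17313 in Wbp7+/- cells. In untreated cells it held 9047 of 14599 peaks in Wbp7-/- and 9695 of 17316 in Wbp7+/- cells. In the Cxcl9 window 2 peaks stood at the ceiling in each LPS list and 0 in each untreated list. In the Cxcl1 window the ceiling was reached by 3 peaks in LPS-treated Wbp7-/- cells, 2 in LPS-treated Wbp7+/- cells, 2 in untreated Wbp7-/- cells and 1 in untreated Wbp7+/- cells. Read numbers are unknown, so scores are not compared in size between lists, and an absent peak means only that the caller's threshold was not passed. Peak edges and covered lengths are set by the same threshold and can also vary with depth, and the part of depth in their differences was not tested.

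**Figure D1:**
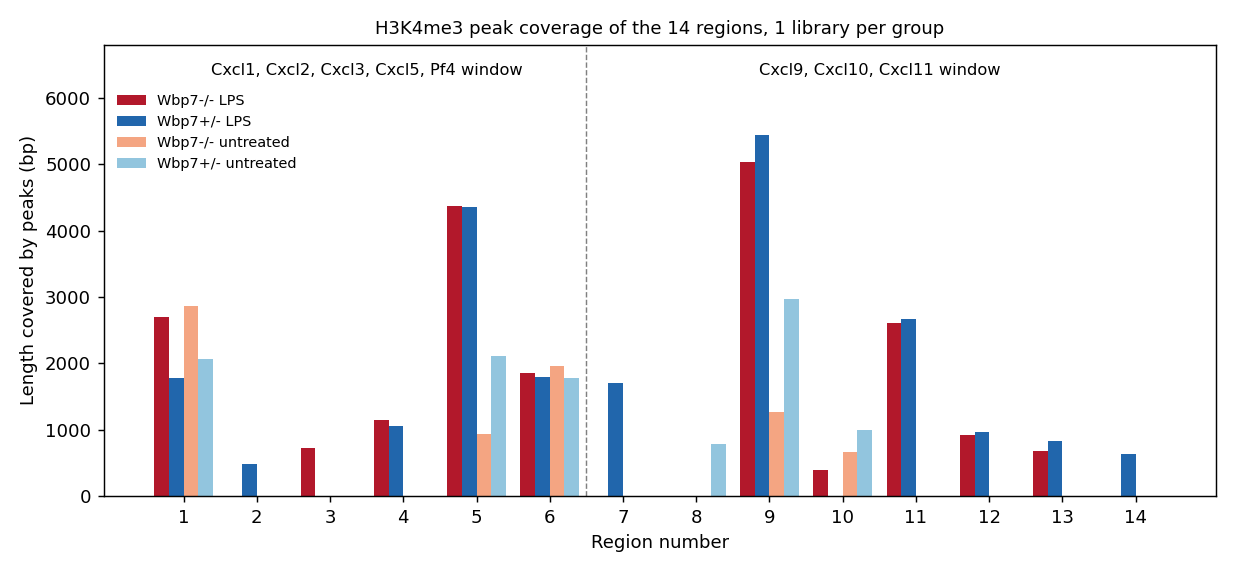
Length covered by peaks (bp) in each of the 14 regions, with 1 bar per library and no bar where a list had no peak. Regions 5, 9 and 11 have LPS bars between 2609 and 5445 bp, and regions 1 and 6 differ by less than 1.5-fold in length between treatments.

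In the Cxcl1 window, 3 regions had a peak in every list, and 1 of them, region 5 from 91331612 to 91336061, was wider by over 1.5-fold after LPS in both genotypes. It was covered over 4368 bp by 1 peak at the ceiling in LPS-treated Wbp7-/- cells. In LPS-treated Wbp7+/- cells it was covered over 4350 bp by a peak of 2850 bp at the ceiling and another of 1500 bp with a score of 450.48, separated by 54 bp. In untreated cells a peak of 943 bp with a score of 113.85 was found in Wbp7-/- and a peak of 2107 bp with a score of 894.50 in Wbp7+/- cells. The LPS lists thus covered nearly equal lengths, and both untreated lists covered less. The ratio of LPS over untreated was 4.63 in Wbp7-/- and 2.06 in Wbp7+/- cells. Among regions that both lists of a genotype held, ratios as high were found at 0.0535% in Wbp7-/- and at 1.16% in Wbp7+/- cells.

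The difference at region 5 was larger on its right side. After LPS the right edge lay further out by 2628 bp in Wbp7-/- cells and by 1659 bp in Wbp7+/- cells, and the left edge by 797 bp in Wbp7-/- cells and by 638 bp in Wbp7+/- cells. Over all regions that both lists of a genotype held, the median outward shift after LPS was -22 bp on the right and -19 bp on the left in Wbp7-/- cells, and -11 bp and -10 bp in Wbp7+/- cells.

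**Figure D2:**
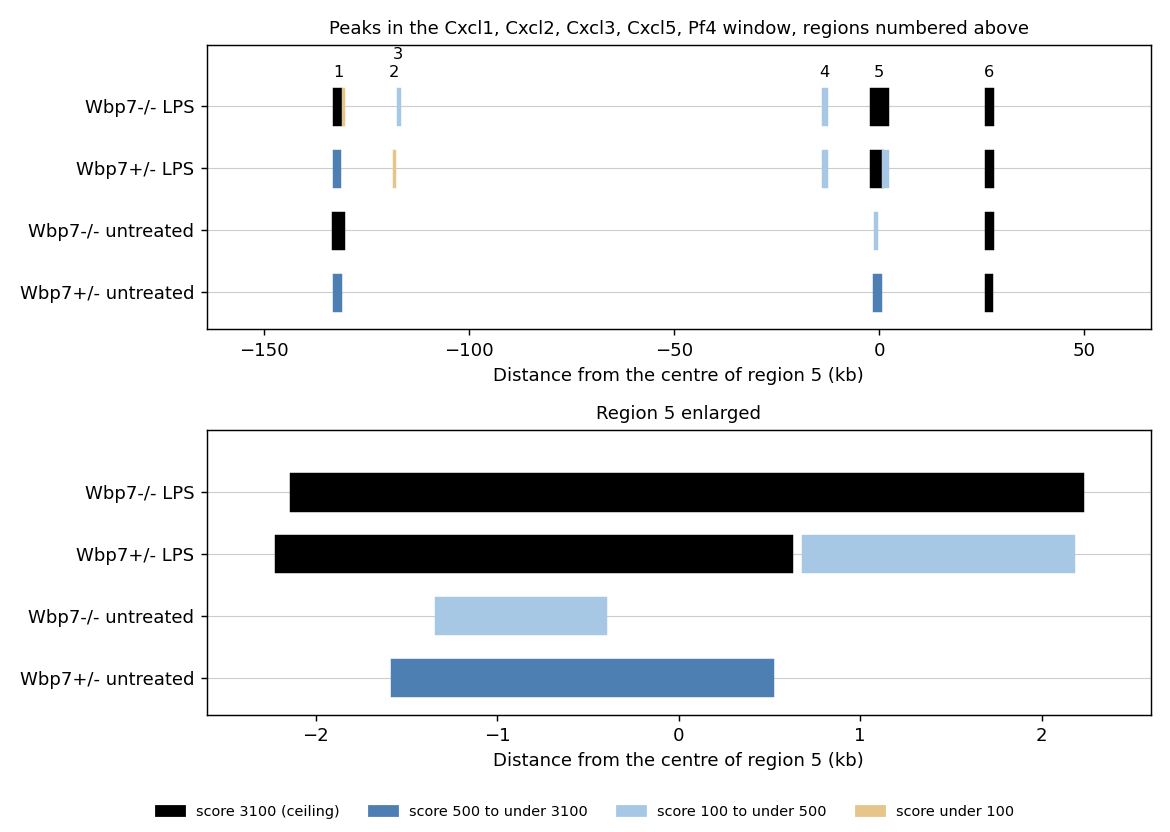
Peaks of the 4 lists in the Cxcl1, Cxcl2, Cxcl3, Cxcl5 and Pf4 window (top) and at region 5 (bottom), by distance from the centre of region 5 in kb, coloured by score class. Regions 2, 3 and 4 appear in LPS rows alone, and region 5 is covered over 4368 and 4350 bp in the LPS rows against 943 and 2107 bp in the untreated rows.

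Region 4, from 91320018 to 91321172 and 10439 bp to the left of region 5, had peaks after LPS only. They measured 1155 bp with a score of 396.10 in Wbp7-/- and 1058 bp with a score of 215.34 in Wbp7+/- cells, and neither untreated list had a peak there. These are narrow peaks of low rank, since 25.4% and 22.1% of the peaks of the Wbp7-/- and Wbp7+/- LPS lists scored lower. By covered length over the 4 lists, the most alike regions elsewhere were one at 113592482 to 113593621 of chromosome 6 and one at 31556129 to 31557295 of chromosome 5, at distances of 0.0409 and 0.0558 (Euclidean, on log2 of length plus 1).

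Regions 2 and 3 were weak LPS peaks that lay 414 bp apart, each found in 1 list. Region 3, from 91216203 to 91216931, had a peak of 729 bp with a score of 106.52 in LPS-treated Wbp7-/- cells. Region 2, from 91215306 to 91215788, had a peak of 483 bp with a score of 55.02 in LPS-treated Wbp7+/- cells. Peaks joined within 1 kb form 1 region here that both LPS lists and neither untreated list hold, and the apparent genotype differences at regions 2 and 3 are then gone.

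Regions 1 and 6 had peaks in every list and differed by less than 1.5-fold in covered length with LPS. Region 6, from 91359654 to 91361610, was at the ceiling in all 4 lists, with widths of 1853 bp in LPS-treated Wbp7-/- cells, 1792 bp in LPS-treated Wbp7+/- cells, 1957 bp in untreated Wbp7-/- cells and 1773 bp in untreated Wbp7+/- cells. It was the only one of the 14 regions at the ceiling in every list. Region 1, from 91200580 to 91203438, was covered over 2699 bp in LPS-treated Wbp7-/- cells, 1781 bp in LPS-treated Wbp7+/- cells, 2859 bp in untreated Wbp7-/- cells and 2064 bp in untreated Wbp7+/- cells. In LPS-treated Wbp7-/- cells a ceiling peak of 2106 bp and, 89 bp away, a peak of 593 bp with a score of 63.73 made up this length. Both genotypes had less coverage of region 1 after LPS, with ratios of 0.944 in Wbp7-/- and 0.863 in Wbp7+/- cells. The Wbp7-/- ratio counts the weak peak of 593 bp, and without it the LPS length was 2106 bp against 2859 bp untreated. The medians over all regions were 0.977 and 0.983, and ratios as high were found at 63.4% and 83.9% of regions.

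Region 1 had more coverage in Wbp7-/- than in Wbp7+/- cells in both treatments. The ratio of Wbp7-/- over Wbp7+/- was 1.52 after LPS and 1.39 untreated, against 1.03 and 1.10 at region 6 and medians over all regions of 1.03 in each treatment. The 1.52 includes the weak peak of 593 bp in LPS-treated Wbp7-/- cells. Their ceiling peak alone measured 2106 bp, less than 1.5-fold the 1781 bp of LPS-treated Wbp7+/- cells. Regions 1.5-fold or more wider in Wbp7-/- after LPS made up 4.07% of those with a peak in both lists. The highest score was at the ceiling in both Wbp7-/- lists, and was 612.21 in LPS-treated and 3059.26 in untreated Wbp7+/- cells. Within the LPS-treated Wbp7+/- list 31.8% of peaks scored lower, and within the untreated Wbp7+/- list 43.9% did.

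In the Cxcl9 window region 9, from 92773046 to 92778990, held a peak in every list and, like region 5, was wider by over 1.5-fold after LPS in both genotypes. It was covered over 5038 bp by 1 ceiling peak in LPS-treated Wbp7-/- cells. In LPS-treated Wbp7+/- cells it was covered over 5445 bp, by a ceiling peak of 4775 bp and, 243 bp away, a peak of 670 bp with a score of 77.82. In untreated cells the peak measured 1267 bp with a score of 283.88 in Wbp7-/- and 2971 bp with a score of 1450.90 in Wbp7+/- cells. The LPS peaks were among the broadest of their lists, as 4.21% of all peaks in LPS-treated Wbp7-/- and 4.41% in LPS-treated Wbp7+/- cells were as wide or wider. In contrast, 76.4% of the peaks of untreated Wbp7-/- cells and 18.0% of those of untreated Wbp7+/- cells were as wide as the untreated peak or wider.

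The ratio of LPS over untreated at region 9 was 3.98 in Wbp7-/- and 1.83 in Wbp7+/- cells, and ratios as high were seen at 0.0917% and 1.88% of regions. Here the difference lay at the left edge. After LPS it lay further out by 3899 bp in Wbp7-/- cells and by 2555 bp in Wbp7+/- cells, whereas the outward shift of the right edge was -128 bp in Wbp7-/- cells and 162 bp in Wbp7+/- cells. The promoters of Pf4, Cxcl3, Cxcl1 and Cxcl2 are on the plus strand and those of Cxcl9 and Cxcl10 on the minus strand in GRCm38.p6. No promoter was given for Cxcl5 and Cxcl11. Whether regions 5 and 9 belong to any of these genes was not tested, so neither side of them is read as upstream or downstream.

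**Figure D3:**
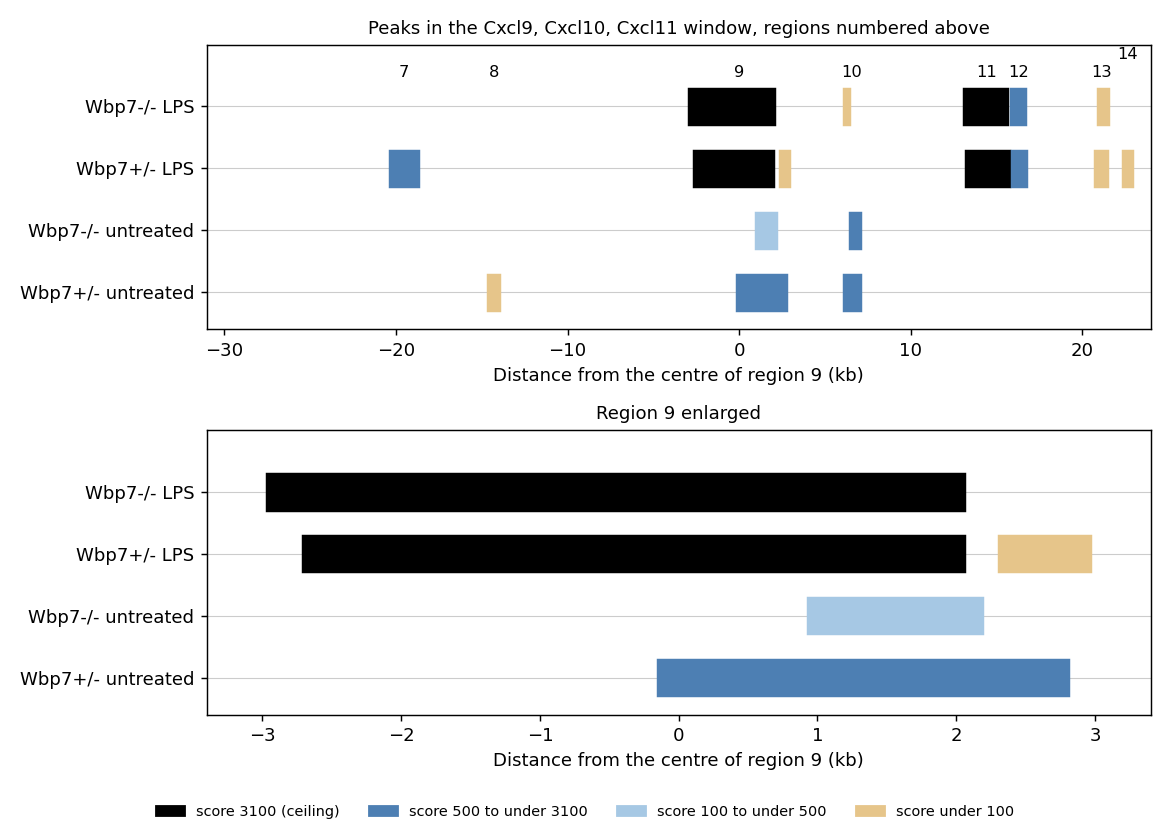
Peaks of the 4 lists in the Cxcl9, Cxcl10 and Cxcl11 window (top) and at region 9 (bottom), by distance from the centre of region 9 in kb, coloured by score class. Ceiling peaks stand in the LPS rows alone, at regions 9 and 11, and region 9 extends to the left after LPS by 3899 bp in Wbp7-/- cells and by 2555 bp in Wbp7+/- cells.

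Regions 11 and 12 were a peak pair present after LPS in both genotypes and in neither untreated list. Region 11, from 92789099 to 92791832, had a ceiling peak of 2609 bp in Wbp7-/- and of 2663 bp in Wbp7+/- cells. Region 12, from 92791836 to 92792810, had a peak of 920 bp with a score of 836.52 in Wbp7-/- and of 966 bp with a score of 1203.30 in Wbp7+/- cells. Within the Wbp7-/- and Wbp7+/- LPS lists, 31.1% and 37.0% of peaks scored lower than the region 12 peak. Only 3 bp separate the joined regions, and within a list the gap between both peaks was 128 bp in Wbp7-/- cells and 12 bp in Wbp7+/- cells. Widths differed little between the genotypes, with ratios of Wbp7-/- over Wbp7+/- of 0.980 at region 11 and 0.952 at region 12.

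Gains at the ceiling in both genotypes were rare, at 9 of all 18786 regions (0.0479%), and region 11 was 1 of these 9. The regions most alike to region 11 by covered length were on the X chromosome from 71317907 to 71320513, with 2562 bp in LPS-treated Wbp7-/- and 2521 bp in LPS-treated Wbp7+/- cells, and on chromosome 7 from 53968475 to 53971298, with 2796 and 2822 bp. Their distances were 0.0833 and 0.130. For region 12 the nearest was on chromosome 9 from 21405664 to 21406673, and for region 13 on chromosome 7 from 63100884 to 63101697.

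The other LPS peaks of the Cxcl9 window were weaker or seen in Wbp7+/- cells alone. Region 13, from 92796706 to 92797582, had peaks of 685 bp with a score of 83.78 in LPS-treated Wbp7-/- and of 825 bp with a score of 66.25 in LPS-treated Wbp7+/- cells. Region 14, from 92798362 to 92798999, had a peak of 638 bp with a score of 70.12 in LPS-treated Wbp7+/- cells only. Region 7, from 92755634 to 92757344, had a peak of 1711 bp with a score of 1160.11 in LPS-treated Wbp7+/- cells and none in the other lists. Among the 5 member regions held by 1 list (2, 3, 7, 8 and 14) it was the widest and had the highest score. Within its list 36.7% of peaks scored lower.

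Peaks that were narrower or absent after LPS were few in the Cxcl9 window. Region 10, from 92782084 to 92783104, had a peak of 393 bp with a score of 56.04 in LPS-treated Wbp7-/- cells and none in LPS-treated Wbp7+/- cells. In untreated cells its peak measured 665 bp with a score of 800.06 in Wbp7-/- and 995 bp with a score of 683.67 in Wbp7+/- cells. It was narrower or missing after LPS in both genotypes, between regions 9 and 11, which had more coverage after LPS. The LPS over untreated ratio in Wbp7-/- cells was 0.591, and the LPS peak overlapped the untreated Wbp7-/- peak only at its edge. Region 8, from 92761315 to 92762103, had a peak of 789 bp with a score of 77.50 in untreated Wbp7+/- cells alone.

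Counted over both windows, LPS gains made up a larger share of the members than of all regions. In Wbp7-/- cells 5 of the 10 member regions with a peak in either list were gained with LPS and 0 were lost, where 7.61% of all 15132 such regions were gained and 5.87% lost. In Wbp7+/- cells 7 of 13 were gained and 2 lost, where 7.95% of all 17607 were gained and 6.64% lost. Gains in both genotypes numbered 4 of 14 (regions 4, 11, 12 and 13), against 1.75% of all regions. Of the 4 member regions with a peak in all lists, 2 (regions 5 and 9) were wider by 1.5-fold or more with LPS in both genotypes, against 1.62% of all 12294. In Wbp7-/- cells alone 1 of 5 shared regions (region 10) was narrower by that fold and 2 were wider, against 2.39% and 3.64% of all. In Wbp7+/- cells 0 of 4 shared regions were narrower and 2 were wider, against 2.34% and 4.33% of all. With peaks scoring under 100 left out, gains in Wbp7-/- cells numbered 2 in each window, those in Wbp7+/- cells numbered 1 in the Cxcl1 and 3 in the Cxcl9 window, and region 10 counted as a loss in Wbp7-/- cells. These counts describe a set chosen with earlier results of these data known, and neighbouring regions such as 11 and 12 are not independent.

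**Figure D4:**
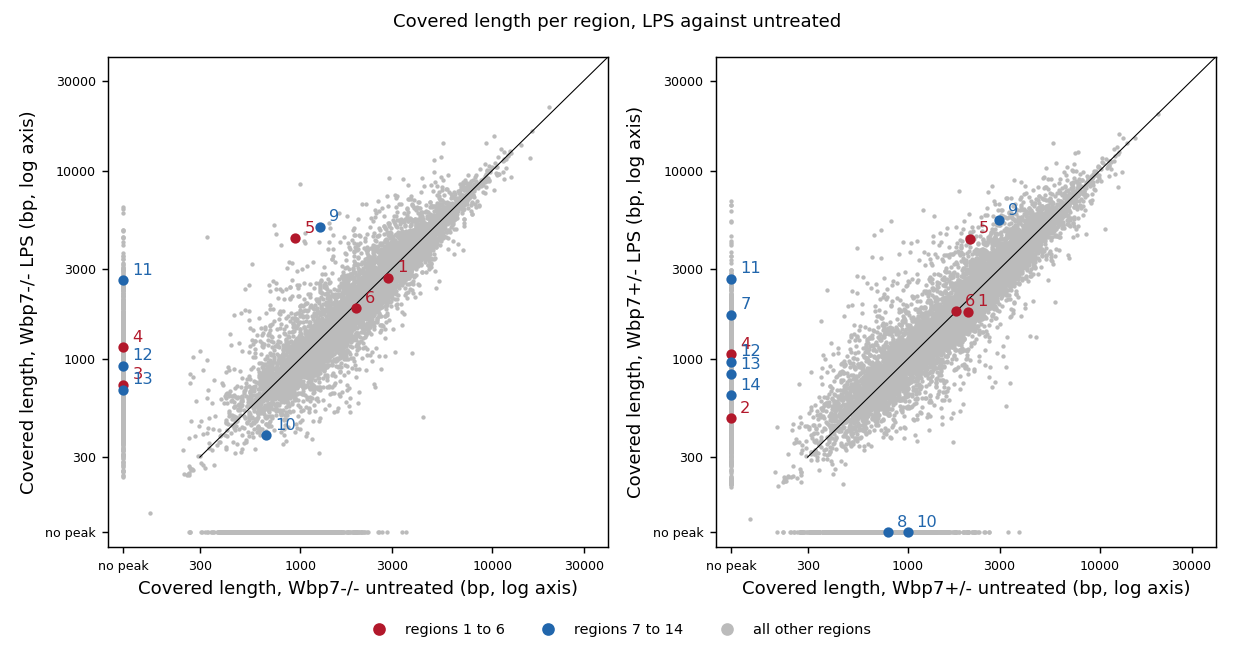
Length covered per region after LPS (vertical, bp, log axis) against untreated (horizontal, bp, log axis) in Wbp7-/- (left) and Wbp7+/- cells (right), with lists that had no peak placed on the outer strips. Regions 5 and 9 lie above the diagonal in both panels, with ratios of 4.63 and 3.98 in Wbp7-/- and 2.06 and 1.83 in Wbp7+/- cells, and region 11 lies on the strip without an untreated peak.

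Between the genotypes, the coverage at regions 5 and 9 differed in untreated cells and was close after LPS. If the LPS-treated Wbp7+/- cells were exposed for 24 h, genotype and exposure time cannot be told apart after LPS. In untreated cells the ratio of Wbp7-/- over Wbp7+/- was 0.448 at region 5, 0.426 at region 9 and 0.668 at region 10. Ratios as high as those at regions 5 and 9 were found at 99.2% and 99.4% of the 13030 regions that both untreated lists held, so they stood near the lower end. After LPS the ratio was 1.00 at region 5 and 0.925 at region 9, whereas region 10 was covered over 393 bp in Wbp7-/- and not at all in Wbp7+/- cells. The median over all regions was 1.03 in each treatment. In untreated cells 2 of 5 shared member regions were narrower by 1.5-fold or more in Wbp7-/- and 0 were wider, against 4.49% and 4.17% of all. After LPS 0 of 8 were narrower and 1 (region 1) was wider, against 5.35% and 4.07% of all. Region 1 was wider by that fold only with its weak second peak included.

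Regions that were wider with LPS in both genotypes, narrower in untreated Wbp7-/- than in untreated Wbp7+/- cells and not narrower after LPS, each by 1.5-fold, numbered 31 of all 12294 with a peak in every list (0.252%). They made up 15.6% of the 199 regions that were wider with LPS in both genotypes. Regions 5 and 9 were 2 of the 31. This combination was put together after the values were seen, it shares the untreated Wbp7-/- library between its parts, and the difference in the LPS response between the genotypes was not tested.

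Presence differed between the genotypes mainly at weak peaks. After LPS, 3 of 13 member regions with a peak in either list lacked one in Wbp7-/- cells (regions 2, 7 and 14) and 2 lacked one in Wbp7+/- cells (regions 3 and 10). Over all 17532 such regions 18.8% lacked a peak in Wbp7-/- and 6.24% in Wbp7+/- cells. In untreated cells 1 of 6 (region 8) lacked a peak in Wbp7-/- and 0 in Wbp7+/- cells, against 18.5% and 5.54% of all 17159. Of these 6 regions, region 7 alone had a score of 500 or above in the list set against the list without a peak. The members' shares of missing Wbp7-/- peaks are near those of all regions. The longer Wbp7+/- lists and the unknown depths go with this difference, and their part in it was not tested.

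**Figure D5:**
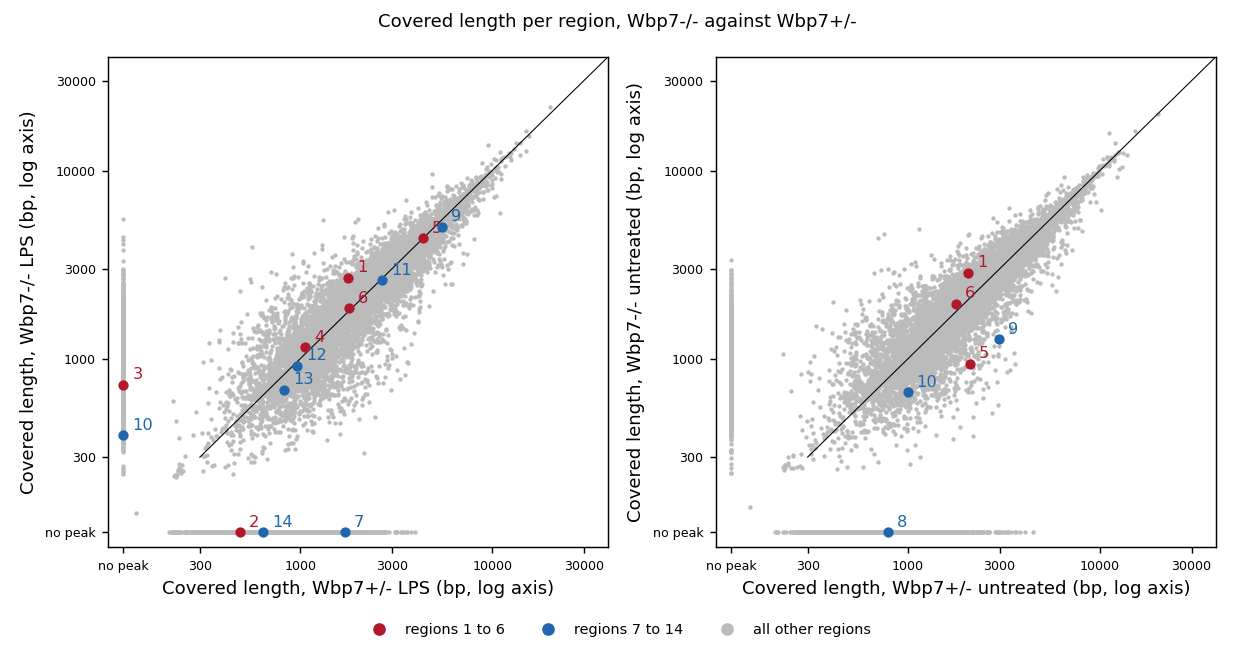
Length covered per region in Wbp7-/- (vertical, bp, log axis) against Wbp7+/- cells (horizontal, bp, log axis) after LPS (left) and untreated (right), with lists that had no peak placed on the outer strips. Regions 5 and 9 lie on or close to the diagonal after LPS, with ratios of 1.00 and 0.925, and below it in untreated cells, with 0.448 and 0.426.

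The window edges did not cut through a peak. In the Cxcl1 window the nearest peaks lay 30580 bp or more inside an edge and at least 136933 bp outside one. At the Cxcl9 window they were closer. The nearest member inside was region 14 at 1001 bp in LPS-treated Wbp7+/- cells, and the nearest peaks outside lay from 3087 to 5694 bp beyond the edges in the 4 lists.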

How the data were processed

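H3K4me3 ChIP-seq peak lists of 4 libraries, 1 per group, were used as deposited, with groups taken from the sample titles. The submitters' processing notes name Bowtie and the mm9 build. MACS made 1 list per library, per the file headers, which also name an input. The depth is unknown, since neither versions, thresholds nor numbers of reads were given. The authors deposited the position of each peak and the caller's score. By the caller's convention the score is a multiple of the negative log10 of the p-value. Scores of 3100 or above are treated as 1 class, the ceiling.

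Peaks of the 4 lists were joined into regions where they overlapped by 1 bp or more, and covered length was summed per region and list. Gained means a peak in LPS and none in untreated cells. Wider and narrower mean a 1.5-fold difference in covered length. The background is the same count over all regions. No test between groups was run. The members, windows and lists were chosen with earlier results of these data known, and the edge shifts were computed after seeing the values. Every region in the windows is given, and regions most alike were named for those gained in both genotypes. On simulated data, a copy of the untreated Wbp7+/- list of 17316 peaks with 200 removed and 200 widened 2-fold, 200 and 188 were recovered. The peaks of this copy were otherwise shifted by only a few bp. It checks the counting and not how lists of separate libraries differ. Motifs were searched in RefSeq promoters of GRCm38.p6. Python 3.11.15, pandas 2.3.3, numpy 2.4.6 and matplotlib 3.10.9 were used. Other settings tried were lists of equal length, peaks scoring 100 or above, peaks wholly within a window, joining within 1 kb, a minimum of 50% of the longest coverage and a 2-fold difference. Leaving out the LPS-treated Wbp7+/- list was added after seeing the data.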

Additional observations from a re-analysis of the deposited data

Results flagged for a closer look

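At 3 regions the covered length differed in opposite directions under the same contrast. None of these differences was tested, since each group had 1 library. At region 5 the difference of Wbp7-/- minus Wbp7+/- was 18 bp after LPS and -1164 bp in untreated cells. At region 10 it was 393 bp after LPS, where Wbp7+/- cells had no peak, and -330 bp in untreated cells. At region 6 the difference of LPS minus untreated was -104 bp in Wbp7-/- cells and 19 bp in Wbp7+/- cells, both small beside its width of 1773 to 1957 bp.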

How the results depend on the processing

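Under the other settings 144 values were recomputed, of which 111 differed from the reported count or length by at most 1.5 times and 33 by more. No covered length was among the 33. Requiring peaks wholly within a window moved none of its 32 values, an outcome fixed in advance because no peak crossed a window edge. Leaving out the LPS-treated Wbp7+/- list moved none of its 8 values, which compare only other lists. Both settings therefore tell little about how stable the results are, although their values are counted in the 111. In the Cxcl1 window, LPS gains in Wbp7+/- cells numbered 1 rather than 2 with scores of at least 100 and with lists of equal length. Regions missing in LPS-treated Wbp7-/- cells then numbered 0 rather than 1, as they did with joining within 1 kb, which also gave 0 rather than 1 missing in LPS-treated Wbp7+/- cells. In the Cxcl9 window, LPS gains in Wbp7+/- cells numbered 3 rather than 5, and regions missing in LPS-treated Wbp7-/- cells 1 rather than 2, with scores of at least 100, with equal lists and joining within 1 kb alike. With scores of at least 100 or equal lists, LPS losses there numbered 1 rather than 0 in Wbp7-/- and 1 rather than 2 in Wbp7+/- cells, regions missing in untreated Wbp7-/- cells 0 rather than 1, and peaks of LPS-treated Wbp7+/- cells 4 rather than 7. With scores of at least 100, peaks of LPS-treated Wbp7-/- cells numbered 3 rather than 5 and regions missing in LPS-treated Wbp7+/- cells 0 rather than 1. With a minimum of 50% of the longest coverage, losses in Wbp7-/- cells numbered 1, regions missing in untreated Wbp7-/- cells 2 and those missing in LPS-treated Wbp7+/- cells 0. By construction the first 2 settings drop weak peaks. At 2-fold, regions wider with LPS numbered 164 rather than 476 in Wbp7-/- and 194 rather than 651 in Wbp7+/- cells over the genome, and region 9 in Wbp7+/- cells was no longer counted. No paired analysis was possible because each group held 1 library.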

Other observations

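Beside the Cxcl1 window, a peak stood on either side in each Wbp7+/- list, without a counterpart in Wbp7-/- cells. To the left it measured 615 bp with a score of 68.76 after LPS and 575 bp with a score of 145.60 in untreated Wbp7+/- cells, at 137017 and 136933 bp from the window. To the right it measured 1077 bp with a score of 735.39 after LPS and 734 bp with a score of 195.93 in untreated Wbp7+/- cells, at 168266 and 168364 bp. The nearest Wbp7-/- peaks lay 235425 and 235218 bp to the left and 988859 and 988815 bp to the right, after LPS and untreated. Regions in both Wbp7+/- lists only numbered 2047 of 18786 over the genome.

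Just to the right of the Cxcl9 window, all 4 lists had a peak, of 2036 bp in LPS-treated Wbp7-/- cells, 2356 bp in LPS-treated Wbp7+/- cells, 1630 bp in untreated Wbp7-/- cells and 1720 bp in untreated Wbp7+/- cells. It was wider after LPS in both genotypes, by less than the 1.5-fold used for the members. Just to the left, a peak at the ceiling in all 4 lists measured 2271 bp in LPS-treated Wbp7-/- cells, 2169 bp in LPS-treated Wbp7+/- cells, 2141 bp in untreated Wbp7-/- cells and 1860 bp in untreated Wbp7+/- cells. Between the windows, peaks covered 21570 bp in LPS-treated Wbp7-/- cells, 22449 bp in LPS-treated Wbp7+/- cells, 21232 bp in untreated Wbp7-/- cells and 19805 bp in untreated Wbp7+/- cells, a smaller difference between treatments than in either window.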
